A study of Mus musculus with 15 samples.

Results

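The dystrophin-glycoprotein complex was described through 8 of its genes, chosen by gene name from the 55536 genes of the deposited tables and found once each in both: Dmd, Utrn, Dag1, Sgca, Sgcb, Sgcd, Dtna and Lama2. Muscle RNA came from 15 male mice aged 2 months, in 3 groups of 5. The control mice were labelled wild type, with no further allele named. The knockout mice were labelled as lacking PdgfrB, the gene of a platelet-derived growth factor receptor, and the D489V mice as carrying its D489V allele, described in the design as constitutively active. Per the design both alleles act in cells that express myogenin, the transcription factor of differentiating muscle, and other cells of the muscle, such as vessel and nerve cells, are not described as altered. No treatment or injury is given in the labels, which also do not name the muscle, the Cre line or the strain, or say whether the mice were littermates. Where the text speaks of replicates, the labels give only a number, so that the p-values measure the spread between the samples within the groups fitted.

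The complex ties the actin cytoskeleton of a muscle fibre through the cell membrane to the basement membrane around it. Dystrophin or its close relative utrophin binds actin inside the fibre, dystroglycan and the sarcoglycans span the membrane, dystrobrevin and syntrophins attach to dystrophin as adaptors, and laminin-211 is the extracellular ligand of dystroglycan. Loss of dystrophin causes Duchenne muscular dystrophy, and losses of sarcoglycans or of the laminin alpha2 chain cause limb-girdle and congenital muscular dystrophies. In adult fibres utrophin is concentrated at neuromuscular and myotendinous junctions, and it is also made in endothelium and nerve.

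The values were normalized read counts, rounded by the authors to whole numbers, and summed to 29815559 to 36489777 per sample. All 11 skeletal muscle fibre markers examined were read in the tissue, with a summed value of 6709599 to 9502497 per sample and overlapping ranges in the groups (6811190 to 8789266 in controls, 6709599 to 9502497 in knockout and 6972943 to 8268109 in D489V). Several samples stood apart in other values. Knockout replicate 3, labelled male, had an Xist value of 3165, while no other sample went beyond 101. D489V replicate 3 had a summed value of 50639 for 8 Schwann cell markers, against 12543 to 15316 in the other D489V samples. The sum of 8 lymphocyte markers was 5021 in control replicate 5 and 1448, 4314 and 1117 in knockout replicates 3 to 5, against 34 to 257 in the remaining samples, and that of 8 slow fibre markers ran from 8374 in knockout replicate 1 to 208436 in knockout replicate 3. Pdgfrb itself was read in every sample, at 1673 to 1848 in controls, 958 to 1628 in knockout and 820 to 1062 in D489V. Both mutant groups thus lay below every control and overlapped each other. In bulk RNA, fewer cells of a type and less RNA per cell cannot be told apart.

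Dmd has several promoters, and a value per gene adds up the transcripts of all of them, so that full-length dystrophin and the short forms could not be told apart. RefSeq promoter windows on GRCm38.p6 were matched for 7 of the 8 genes, and the 250 bases before both Dmd starts are shown because Dmd is one of the 2 members that differed between groups below. The first window (chrX:82948620-82948869, plus strand) lies just upstream of the gene and precedes the start of the 14910-base full-length transcript. The second (chrX:85048045-85048294, plus strand) lies in an intron of that transcript, ahead of the start at 85048295. Capitals mark matches to the E-box CANNTG, the CArG box, the MEF2 site, a TATA box spelled TATAAA and the GC box GGGCGG, each searched on both strands (an N-box spelled TTCCGG, in 12% of all windows, was also searched and had no match):
Dmd, start of the full-length transcript: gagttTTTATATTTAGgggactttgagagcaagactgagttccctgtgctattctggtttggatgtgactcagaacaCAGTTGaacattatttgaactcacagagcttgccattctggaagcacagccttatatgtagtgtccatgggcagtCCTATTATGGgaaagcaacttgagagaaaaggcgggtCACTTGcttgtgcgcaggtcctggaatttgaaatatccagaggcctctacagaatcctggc
Dmd, internal start: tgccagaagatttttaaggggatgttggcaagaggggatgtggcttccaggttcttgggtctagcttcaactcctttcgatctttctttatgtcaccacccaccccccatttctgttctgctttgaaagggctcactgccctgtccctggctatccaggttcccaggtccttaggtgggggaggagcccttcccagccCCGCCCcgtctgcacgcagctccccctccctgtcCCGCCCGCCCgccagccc
The full-length window held 2 E-boxes, 1 CArG box (at -98 from the start) and 1 MEF2 site that overlaps a TATAAA match on the other strand (at -244 and -245). Of 32841 windows of the same length, 66.2% held a CANNTG, 1.5% a CArG box, 2.9% a MEF2 site and 12.4% a TATAAA. The internal window held none of these and 3 GC boxes, 2 of them overlapping, a motif present in 32.7% of all windows. Its GC content was 60% against 45.2% in the full-length window and a median of 52.4% over all windows. These matches describe the sequence and are not evidence of binding.

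Levels of different genes were compared as normalized counts per kilobase of annotated exon, over all 15 samples. Sgca, encoding alpha-sarcoglycan, was highest at 2643 ± 234 (SD, n = 15), followed by Sgcb (beta-sarcoglycan) at 1335 ± 266 and Dag1 (both chains of dystroglycan) at 1307 ± 296. Sgcb and Dag1 did not differ beyond their spread. Dtna, the alpha-dystrobrevin gene, followed at 174 ± 23.6 and Lama2, the laminin alpha2 chain gene, at 92.4 ± 13.6. Dmd had 67.4 ± 17, Utrn 53.8 ± 7.99 and Sgcd, the delta-sarcoglycan gene, 30.2 ± 5.33 normalized counts per kilobase. The range of Dmd (39.3 to 99.9) overlapped those of Lama2 (68.2 to 108) and Utrn (42.4 to 65.8), which did not overlap each other, whereas all values of Sgca (2253 to 3191) lay above those of every other member. Dividing by the longest protein-coding transcript in place of all exons placed Dag1 before Sgcb and Sgcd (102 ± 18) before Utrn (74.4 ± 11). The order of the other genes was the same with both lengths.

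The 8 genes lie on 6 chromosomes of GRCm38. Dmd (ENSMUSG00000045103) spans X, 82948870 to 85206141, plus strand. Utrn (ENSMUSG00000019820) and Lama2 (ENSMUSG00000019899) both lie on the minus strand of chromosome 10, at 12382188 to 12869365 and 26980036 to 27619758. Sgca (ENSMUSG00000001508, 94962791 to 94976327) and Sgcd (ENSMUSG00000020354, 46896253 to 47988969) both lie on the minus strand of chromosome 11. Dag1 (ENSMUSG00000039952) is on chromosome 9, 108204634 to 108263958, minus strand, Sgcb (ENSMUSG00000029156) on chromosome 5, 73632749 to 73647790, minus strand, and Dtna (ENSMUSG00000024302) on chromosome 18, 23415135 to 23659715, plus strand. All are annotated as protein-coding. An antisense gene shares exon bases with 2 of them, Dtna (90 bases with Gm47898, read at 56 to 140) and Lama2 (631 bases with Gm48084, read at 0 to 5). The library kit kept strand, but whether the counting used it is not given in the sources used here.

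Dmd, the gene of dystrophin, was read at normalized counts of 1212, 1416, 1852, 2018 and 936 in controls 1 to 5. In knockout replicates 1 to 5 it stood at 2024, 1970, 2378, 1376 and 2000, and in D489V replicates 1 to 5 at 1393, 1515, 1396, 1218 and 1349. Controls spread over the whole range of the D489V samples and most of that of the knockout samples. In knockout, 4 of 5 samples lay above every D489V sample, and replicate 4 lay among them. The group values were 1487 ± 447 in controls, 1950 ± 361 in knockout and 1374 ± 107 in D489V (SD, n = 5 each).

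Utrn, the gene of utrophin, showed the opposite order. Its normalized counts were 985, 900, 1013, 775 and 882 in controls 1 to 5, 802, 815, 725, 776 and 797 in knockout replicates 1 to 5, and 968, 1051, 1126, 1110 and 1091 in D489V replicates 1 to 5. Every D489V sample was above every knockout sample. Controls overlapped both groups, reaching below the knockout median with replicate 4 and above the lowest D489V sample with replicates 1 and 3. The group values were 911 ± 94, 783 ± 35.3 and 1069 ± 63.1 (SD, n = 5 each) in controls, knockout and D489V.

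**Figure D1:**
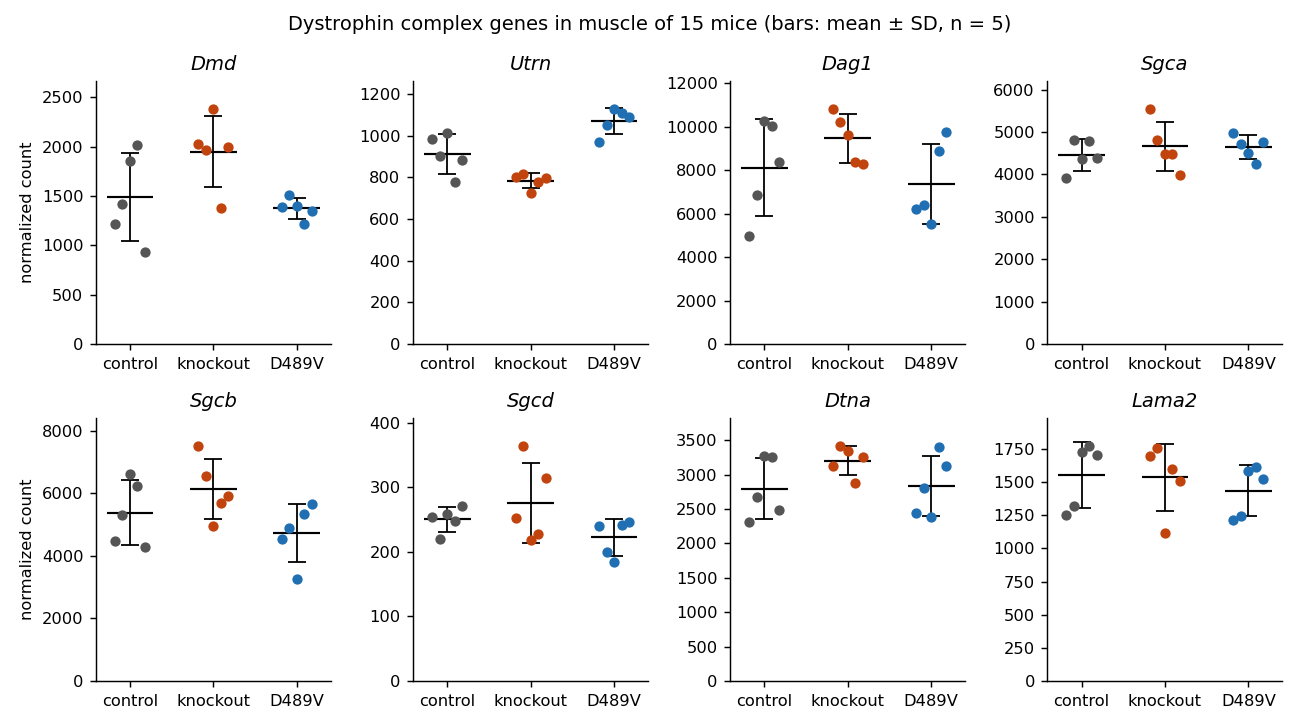
Normalized counts of the 8 complex genes (vertical axes from 0) in control, knockout and D489V mice. Points are single mice and black bars the mean ± SD (n = 5); Utrn is the gene whose knockout (725 to 815) and D489V samples (968 to 1126) do not overlap, while Dmd controls range from 936 to 2018.

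Dag1 encodes dystroglycan, whose alpha chain binds laminin and whose beta chain binds dystrophin. It was read at 4995, 6837, 10268, 10044 and 8389 in controls 1 to 5, at 10797, 10223, 9621, 8379 and 8284 in knockout, and at 6221, 6414, 5516, 8899 and 9728 in D489V. Controls 1 and 2 and D489V replicates 1 to 3 were low, and the remaining samples of these groups lay within or near the knockout range. Sgcb had a similar layout, with 4471, 5306, 6612, 6232 and 4277 in controls, 7509, 6538, 4950, 5696 and 5912 in knockout, and 4523, 4897, 3258, 5343 and 5647 in D489V. The lowest value of all 15, 3258, was in D489V replicate 3, the sample with the high Schwann cell markers.

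The other members varied less or without regard to group. Sgca stayed within 3909 to 4816 in controls, 3987 to 5537 in knockout and 4240 to 4980 in D489V, with all 3 groups overlapping. Sgcd was read at 220 to 271 in controls, 219 to 364 in knockout and 184 to 246 in D489V, the highest value being knockout replicate 2. Dtna ranged over 2307 to 3274, 2880 to 3419 and 2384 to 3403, and Lama2 over 1251 to 1773, 1115 to 1756 and 1217 to 1615 in the same groups. The lowest Lama2 value, 1115, was in knockout replicate 3, where the summed value of 9 markers of fibro-adipogenic progenitors, connective tissue cells that make much of the muscle matrix, was 52278 against 141529 to 228211 in the other knockout samples. The part of that difference in the Lama2 value was not tested.

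Each pair of groups was compared with limma over all genes that reached a value of 10 in 5 samples or more of the 10 compared, with Benjamini-Hochberg adjustment over all of them and a threshold of 0.05. All 8 members passed the filter in every comparison, and differences are log2(value + 1). In knockout against control, limma called 0 of 8 members, beside 0.00656% of the 15234 genes tested. At an unadjusted p under 0.05 there was 1 of 8 (Utrn), against 15.1% of all genes. The Utrn difference was -0.21 (SE 0.0904, limma adjusted p 0.315), and that of Dmd was 0.42 (SE 0.208, limma adjusted p 0.349) with a 95% confidence interval of -0.03 to 0.88. The remaining 6 lay between -0.02 for Lama2 and 0.26 for Dag1. The median over the 8 members was 0.15, beside 0.01 over all genes tested, and no member had groups without overlap (2.24% of all genes did).

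In D489V against control, limma again called 0 of 8 members, beside 0.0587% of the 15339 genes tested (0.0261% higher and 0.0326% lower). Only Utrn had an unadjusted p under 0.05 among the 8, against 9.43% of all genes. Its difference was 0.24 (SE 0.0907, limma adjusted p 0.439), with a 95% confidence interval of 0.04 to 0.43. Dmd had a difference of -0.06 with an interval of -0.46 to 0.34, and the other 6 lay between -0.19 for Sgcb and 0.06 for Sgca. The median over the members was -0.09, beside 0.00 over all genes (0.0019 before rounding), and no member had groups without overlap (2.16% of all genes did). Both comparisons share the 5 control samples.

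The knockout samples, labelled as lacking the receptor, and the D489V samples, labelled as carrying its D489V allele, were then compared directly. Here 2 of 8 members passed, 1 in each direction, beside 20.8% of the 15299 genes tested (10.5% higher and 10.3% lower in knockout), so the share was near that of all genes. At an unadjusted p under 0.05 there were 4 of 8 (Dmd, Utrn, Dag1 and Sgcb), against 37.7% of all genes. Dmd was higher in knockout by 0.49 (SE 0.128, limma adjusted p 0.0229), a 1.4-fold difference with a 95% confidence interval of 0.21 to 0.76 on the log2 scale. Utrn was lower in knockout, with a difference of -0.45 (SE 0.0756, limma adjusted p 0.00437) and an interval of -0.61 to -0.28, which is 1.36-fold more in D489V. It was the member whose groups did not overlap, 1 of 8 beside 13.9% of all genes. Without knockout replicate 3, which had the highest Dmd value and the Xist reads, Dmd was still higher by 0.41 (limma adjusted p 0.0467). The Dmd call was lost without D489V replicate 1 (0.49, limma adjusted p 0.0531) and in one fit over all 15 samples (0.49, limma adjusted p 0.0741), whose spread includes that of the controls.

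**Figure D2:**
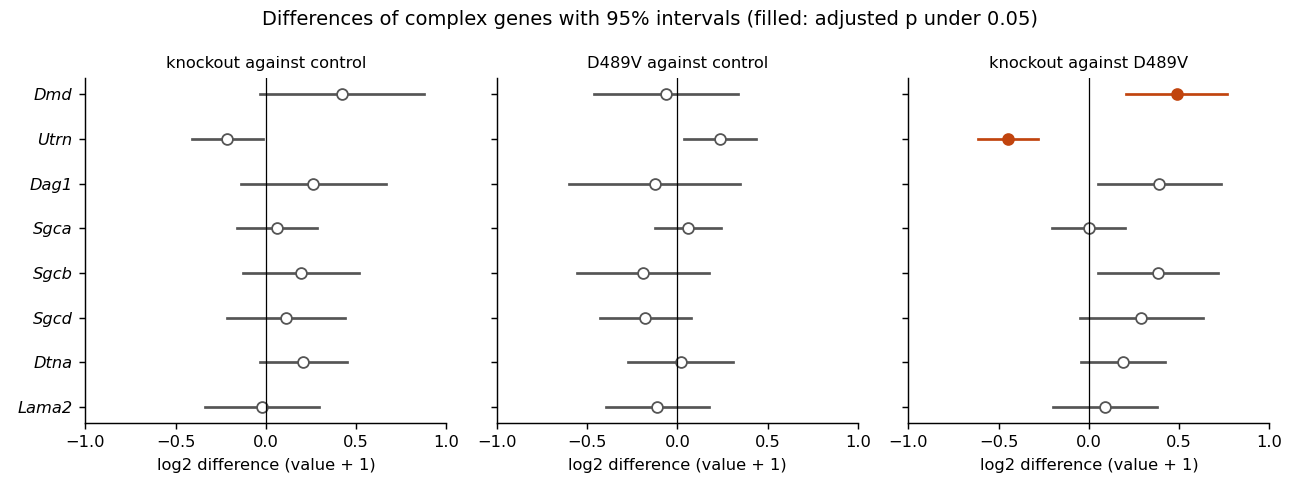
Log2 differences of the 8 genes on the value + 1 scale, with 95% confidence intervals, for the 3 comparisons of 5 against 5 mice. Filled points passed the threshold in limma: Dmd (0.49) and Utrn (-0.45) in knockout against D489V, and none against control.

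Of the members that did not pass, Dag1 and Sgcb had differences of 0.39 (95% confidence interval 0.05 to 0.73, limma adjusted p 0.0895) and 0.38 (0.05 to 0.71, limma adjusted p 0.0884) in knockout against D489V. Dag1 passed without D489V replicate 5 (0.50, limma adjusted p 0.03) and with array weights (0.46, limma adjusted p 0.0314), a fit that gives noisier samples less weight. Sgcd and Dtna had 0.29 and 0.19, with limma adjusted p of 0.195 and 0.213. Lama2 had 0.09, with an interval of -0.20 to 0.38. For Sgca the difference was 0.00 (-0.0007 before rounding) with an interval of -0.20 to 0.20. The median over the members was 0.24, beside 0.00 over all genes tested (4e-04 before rounding).

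The contrary layout of Utrn and Dmd can be put as their ratio within each sample, which is free of the scaling between libraries. The ratio is made from the same values and is given only as a description. Utrn over Dmd normalized counts was 0.396, 0.414, 0.305, 0.564 and 0.399 in knockout replicates 1 to 5 and 0.695, 0.694, 0.807, 0.911 and 0.809 in D489V replicates 1 to 5. Controls held 0.813, 0.636, 0.547, 0.384 and 0.942, which covers nearly the whole range of both other groups. Control replicate 4 resembled the knockout samples in both genes.

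**Figure D3:**
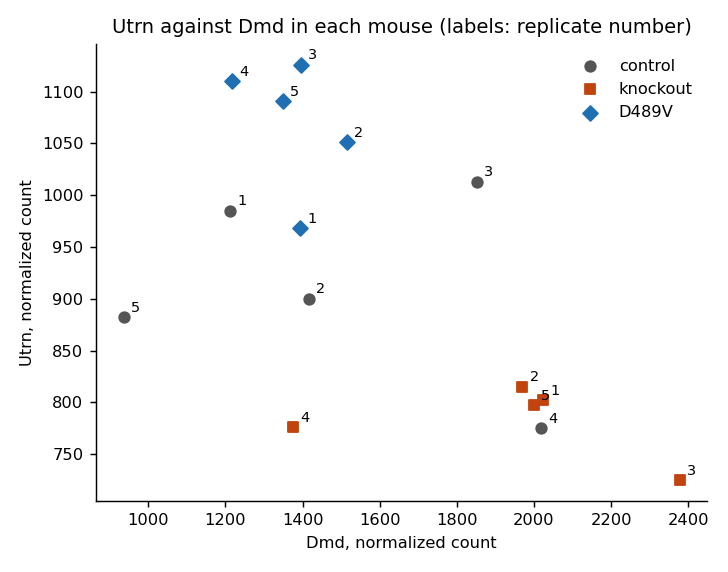
Normalized count of Utrn (vertical axis) against that of Dmd (horizontal axis), both axes starting above 0, with 1 point per mouse labelled by replicate number. D489V mice lie at Utrn of 968 to 1126 and knockout mice at 725 to 815, while the 5 controls run from 775 to 1013 on Utrn and from 936 to 2018 on Dmd and overlap both groups on each axis.

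Markers of vessel, nerve and fat cells, like Utrn, were mostly lower in knockout than in D489V. Of all genes tested, 10.3% were lower and 10.5% higher in that comparison. Of 8 endothelial markers, 8 were lower in knockout than in D489V in limma, and the summed value was 10152 to 15085 in knockout, 15379 to 22280 in controls and 17313 to 20379 in D489V. Of 8 Schwann cell markers, 7 were lower, with sums of 6370 to 10040 in knockout, 8967 to 14593 in controls and 12543 to 50639 in D489V. Of 9 mural and smooth muscle markers, 4 were lower and 1 (Abcc9) higher, with sums of 22905 to 25291 in knockout, 24384 to 29502 in controls and 25088 to 31495 in D489V. Of 6 adipocyte markers, 5 were lower, with sums of 6001 to 9536 in knockout, 1706 to 31598 in controls and 15727 to 57399 in D489V. Every marker of these lists was read in at least 1 sample. Neuromuscular junction markers, which mark the site where fibre utrophin is concentrated, overlapped between the groups in their sum (6323 to 7287 in knockout and 6448 to 7979 in D489V), with 2 higher and 1 lower of 10. The lists of skeletal muscle fibre, slow fibre, fibro-adipogenic progenitor, satellite cell, macrophage, tendon and lymphocyte markers had 0 genes called in this comparison. The part of vessel, nerve and fat cells in the Utrn difference, and in those of Sgce and Drp2 given below, was not tested. Without D489V replicate 3, the sample rich in Schwann cell markers, Utrn was -0.43 (limma adjusted p 0.00804).

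Among 13 partner genes of the complex, 11 passed the filter, and 4 of these differed between knockout and D489V in limma, beside the 20.8% of all genes given above. Higher in knockout were Nos1, the neuronal nitric oxide synthase that syntrophin anchors at the membrane, by 0.87 (limma adjusted p 0.0311), and Sspn, the small membrane protein sarcospan, by 0.72 (limma adjusted p 0.0176). Nos1 stood at 1295, 715, 2275, 1540 and 1356 in knockout replicates 1 to 5 against 603 to 982 in D489V, with replicate 2 inside the D489V range. Sspn stood at 3241 to 4219 in knockout and 1668 to 3267 in D489V, overlapping at a single sample of each.

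Lower in knockout were Drp2, a dystrophin-related protein best known from myelinating Schwann cells, at -1.02 (limma adjusted p 0.022), and Sgce, the epsilon-sarcoglycan gene that is widely expressed outside striated muscle, at -0.48 (limma adjusted p 0.0134). Drp2 was read at 313 to 403 in knockout and 494 to 1631 in D489V, and its highest value was in D489V replicate 3, the sample with the high Schwann cell markers. Sgce was read at 220 to 317 in knockout, 224 to 364 in controls and 355 to 376 in D489V. Neither gene's groups overlapped between knockout and D489V. Sntb2, the beta2-syntrophin gene, had separate groups too (270 to 440 and 449 to 478) but a limma adjusted p of 0.0503, with a difference of -0.40. Such separate groups were thus found in 3 of the 11 tested partners, beside 13.9% of all genes.

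The syntrophin genes Sntb1 and Sntg2 did not pass, with differences of -0.32 and -0.52. Dtnb (beta-dystrobrevin) at 0.40 and Cav3 (caveolin-3) at 0.21 did not pass either. Sgcz and Sntg1 reached at most 2 and 3 normalized counts in any sample and were not tested. Against control, 0 of the 11 partners passed in limma in either mutant group. An unadjusted p under 0.05 was found for 4 in knockout and 1 in D489V, beside 15.1% and 9.43% of all genes. Without knockout replicate 3, 4 partners passed in knockout against D489V, and without D489V replicate 3 there were 3.

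**Figure D4:**
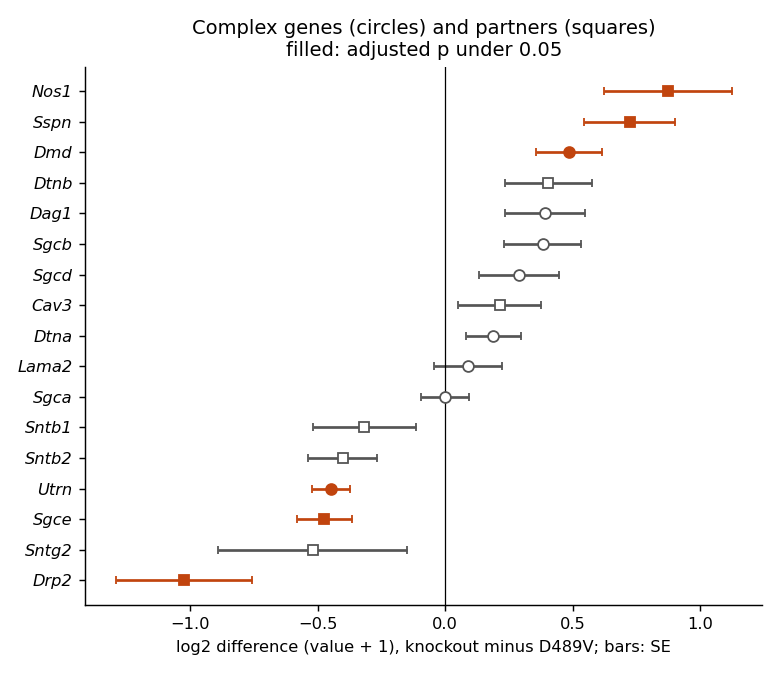
Log2 differences (value + 1) in knockout minus D489V for the 8 complex genes (circles) and 9 tested partners (squares), ordered by size, with standard errors as bars. Filled points passed in limma: Nos1, Sspn and Dmd on the side of higher knockout values, Utrn, Sgce and Drp2 on the side of lower ones.

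Genes that process or bind dystroglycan were counted from fixed lists. Of 17 glycosylation genes, which build the sugar chain that alpha-dystroglycan needs to bind laminin, 16 were tested, and 4 were higher and 1 lower in knockout than in D489V in limma, beside 10.5% of all genes higher and 10.3% lower. Pomk, which phosphorylates its core mannose, was higher by 0.63 (limma adjusted p 0.0252), and Dpm2, a subunit of the enzyme that supplies activated mannose, was lower at -0.53 (limma adjusted p 0.00975). The list median was 0.29, and without D489V replicate 3 the count was 3. Of 15 tested ligand and basement membrane genes 2 were lower and 0 higher, beside 20.8% of all genes called: Agrn, the gene of agrin, at -0.53 (limma adjusted p 0.0181), and Lama5, the laminin alpha5 chain gene, at -0.46 (limma adjusted p 0.0323), with a list median of -0.14. That count was 1 without knockout replicate 3 and 1 without D489V replicate 3. Lama5 and Agrn are also made by endothelial cells, whose markers were lower in knockout as given above, and their part was not tested.

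Other links between membrane and cytoskeleton were counted in knockout against D489V, where 10.5% of all genes were higher and 10.3% lower. The alpha7 integrin list, another laminin receptor of fibres with its cytoplasmic partners, had 5 of 10 genes higher and 0 lower, with Vcl (vinculin) at 0.59, Tln2 (talin-2) at 0.56 and Lims1 at 0.46 (limma adjusted p 0.0266, 0.00888 and 0.0204), and a median of 0.22. The other genes called were Itgb1 and Fermt2. Without D489V replicate 3 the count was 2. Of 14 tested costamere genes 4 were higher and 0 lower, led by the intermediate filament genes Synm (0.70) and Sync (0.53) and the ankyrin gene Ank2 (0.45), with limma adjusted p of 0.0435, 0.0474 and 0.00987 and a median of 0.10. Plec, the plectin gene, was the remaining one. That count was 1 without knockout replicate 3 and 1 without D489V replicate 3. Of the 14 genes, 8 had a positive and 6 a negative difference.

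Of 11 membrane repair genes, 2 were higher and 1 lower in the same comparison, beside 20.8% of all genes called. Dysf, the gene of dysferlin, a protein of membrane resealing, was higher by 0.79 (limma adjusted p 0.00398), at 4464 to 6683 in knockout against 2818 to 3971 in D489V. Ano5 was higher by 0.49 (limma adjusted p 0.0355), and Ehd2 was lower at -0.53 (limma adjusted p 0.0207). Of 8 tested genes of regenerating fibres, 3 were lower and 0 higher, beside 10.3% of all genes lower: Cdkn1a at -0.96, Myh3, the embryonic myosin heavy chain gene, at -0.84, and Myl4 at -0.68 (limma adjusted p 0.0188, 0.0472 and 0.0419). Without D489V replicate 3 that count was 1. Of the 8 genes, 5 had a negative and 3 a positive difference (Myh8, Myod1 and Mymk), with a list median of -0.23. Against control, 0 genes passed in limma in any of these 6 lists in either mutant group, while 21 of 75 tested genes in knockout and 11 of 75 in D489V had an unadjusted p under 0.05, beside 15.1% and 9.43% of all genes.

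Across the 15 samples the members did not move as one unit. Of the 28 pairs, 19 had a positive and 9 a negative Pearson correlation of log2 values, over samples that share 3 groups and the library of each mouse. Dag1, Dtna and Sgcb were the 3 most alike: 0.859 for Dag1 and Dtna, 0.784 for Dag1 and Sgcb and 0.758 for Sgcb and Dtna, and 0.842, 0.719 and 0.735 after group means were removed. All 7 pairs with Utrn were negative, but once group means were removed 4 were negative and 3 positive (Sgcb, Sgcd and Lama2). The pair of Utrn and Dmd had -0.57, and -0.227 with group means removed. Dmd was nearest to Dtna (0.662) among the members, and Sgca, with 0.344 at most, was near none.

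Of 11558 other protein-coding genes with a mean value of 50 or more, those most like each member over the 15 samples by Pearson correlation were Mdm2 (0.928) and Ank2 (0.922) for Dmd, Dip2a (0.917) and St3gal4 (0.906) for Utrn, and Mipep (0.985) and Srl (0.981) for Dag1. For Sgca they were Bsg (0.834) and Ckm (0.819), for Sgcb Reep1 (0.941) and Pon3 (0.932), and for Sgcd Lipt2 (0.835) and Mtr (0.77). For Dtna they were Sox6 (0.952) and Tlk1 (0.946), and for Lama2 Lamc1 (0.936), the gene of the laminin gamma1 chain, and Col5a1 (0.915), a fibrillar collagen gene. Removal of group means left 0.929 for Dmd and Mdm2 and 0.984 for Dag1 and Mipep but lowered Utrn and Dip2a to 0.773.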

How the data were processed

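Poly(A) RNA of skeletal muscle was sequenced from strand-preserving libraries, per the labels' protocols. The deposited values are a score: per-gene read counts after normalization by the authors, given as integers, as the names of the tables say; the method is not given in the sources used here. The submitters' processing notes name Trim Galore 0.6.0, cutadapt, FastQC, STAR 2.7.0e, DESeq2 1.26.0 and GRCm38; the counting tool is not given in the sources used here. The 2 tables were joined by gene identifier, and their 5 control columns were identical. All 55536 identifiers matched GENCODE release M21. Rounded normalized values allow no test on read counts, so limma 3.58.1 (R 4.3.3, lmFit and eBayes with trend, two-sided, equal weights) was run on log2(value + 1) for each pair of groups. Read depth is unknown. Python 3.11.15, pandas 2.3.3, numpy 2.4.6 and matplotlib 3.10.9 were used otherwise. The members and gene lists were chosen with earlier results of these data known. The rule named all members and partners, of each other list the called genes, at most the 3 with the greatest difference, and for each member the 2 most alike genes; a few further called list genes were named after their values were seen, and some genes under the rule are not reported here. Alternatives were other pseudocounts, filters, scalings, variance models and weights, a replicate block, one fit of all samples and leaving out each sample.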

Additional observations from a re-analysis of the deposited data

How the results depend on the processing

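Of 456 values for single members, 431 had the same sign and the same call, 2 lost the call (Dmd, given above), 2 gained it (Dag1, given above) and 21 changed sign. No changed sign was a called value. In knockout against control, Lama2 became 0.0212 with upper-quartile rescaling and 0.0045 with array weights (-0.096 to 0.0896 without 1 sample), and Sgca became -0.0512 with quantile normalization (-0.004 to 0.1144 without 1 sample). In D489V against control, Dtna ran from -0.0515 to 0.0782 and Dmd from -0.2151 to 0.0617 without 1 sample. In knockout against D489V, Sgca became 0.0335 with upper-quartile rescaling (-0.0651 to 0.0534 without 1 sample).

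Utrn passed in knockout against D489V in all 19 alternatives run, with limma adjusted p of 0.00255 to 0.0226, and Dmd in 17 of 19 (0.00622 to 0.0741). The number of members passing was 1 in one fit of all 15 samples and 1 to 3 without 1 sample (1 without D489V replicate 1, 3 without D489V replicate 5). Against control it was 0 in every alternative, 0 to 0 without 1 sample in both comparisons.

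Over all genes, knockout against control gave 3 with quantile normalization, 16 in one fit of all samples and 1 to 7 without 1 sample (7, 2, 2, 2 and 4 without knockout replicates 2 and 3 and control replicates 3, 4 and 5). D489V against control gave 9 as reported, 19 with pseudocount 5, 4 when only genes averaging at least 50 were kept, 18 after rescaling to the upper quartile (61.1% higher against 44.4%), 16 with quantile normalization, 21 with robust eBayes, 86 with array weights, 1 in one fit and 2 to 26 without 1 sample (26 without D489V replicate 3, 15 without control replicate 3 and 2 to 4 without control replicates 1, 2 or 4 or D489V replicates 1, 2, 4 or 5). Knockout against D489V gave 3181 as reported and 1398 to 3686 without 1 sample (1398, 1526 and 1989 without D489V replicates 1, 2 and 3). With the replicate block, 1, 7 and 2208 genes and 0, 0 and 2 members passed, and it changed no call of a member. Between same-numbered samples, deviations from the group means correlated at -0.4 to 0.39, and at most 2 of 5 correlated best with their own number. With 5 pairs per comparison, and no statement in the labels, whether a shared number marks a pairing could not be decided. A fit without 1 sample has fewer samples; for the other settings the cause was not tested.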
